A study of Mus musculus with 12 samples.

Results

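The genes described here encode the proteins of the cytosolic ribosome, taken as every measured gene whose symbol begins with Rpl or Rps followed by a number, Rplp0, Rplp1, Rplp2 and Rpsa, without the S6 kinase genes. Of the 9374 genes in the table, 73 met this rule, 41 named Rpl and 32 named Rps. They comprised 37 proteins of the large (60S) subunit, 31 of the small (40S) subunit and the 3 proteins of the P stalk. The other 2, Rpl7l1 and Rps19bp1, share the naming but are not proteins of the mature ribosome. A further 16 mouse genes with such names, among them Rpl3, Rpl26, Rpl30, Rpl34 and Rps27, were not analysed here. The values come from RNA sequencing of neutrophils from the blood of female mice, 16 hours after lipopolysaccharide (LPS, a component of the bacterial outer membrane that is sensed by Toll-like receptor 4) at 0.5 mg/kg, or after saline. The 4 groups of 3 libraries were KO-LPS and KO-Saline, from mice labelled Hmgb1ΔMye, and WT-LPS and WT-Saline, from mice labelled WT. Hmgb1 encodes a nuclear DNA-binding protein that acts as an alarm signal once outside the cell, and ΔMye is a name used for a deletion in the myeloid lineage. No driver of the deletion, strain or age is given in the sources used here.

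Ribosomal proteins assemble with ribosomal RNA in the nucleolus into a large subunit, which forms peptide bonds, and a small subunit, which reads the messenger RNA. Their genes are transcribed in nearly all cells, and their mRNAs are among the most abundant of a typical growing cell. Most of these mRNAs begin with a C followed by a run of pyrimidines, the TOP element, through which mTORC1 and the RNA-binding protein Larp1 set how strongly they are translated. Neutrophils are made in the bone marrow from rapidly growing precursors, and mature blood neutrophils have few ribosomes and little RNA. LPS brings younger neutrophils into the blood.

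Start windows from RefSeq (GRCm38.p6, the build also called mm10) were matched for 55 of the 73 genes. The other genes were all other protein-coding genes with such a window, whether or not measured here. A gene counted if any of its windows matched. A C followed by 4 pyrimidines stood at the annotated start of 10 of the 55 members (18.2%), against 457 of 17437 other genes (2.62%). A C followed by 6 pyrimidines began within 20 bases of the annotated start in 29 (52.7%), against 24.2% of the other genes. These 2 features were searched on the strand of the gene. The letters CTTTCC, searched on both strands from 50 bases before to 50 after the start, stood in 15 genes (27.3%), against 9.38% of the others. CCGGAAG, the core bound by ETS factors, was found on either strand from 250 bases before to 50 after the start in 20 genes (36.4%), against 12.9%. GCCATCTT, the core bound by YY1, stood in 5 genes (9.09%), against 3.55%, and TATAAA in the 50 bases before the start in 0, against 4.71%. CTTTCC and the pyrimidine runs can overlap each other. A match is a description of letters, not a binding site. Windows from 60 bases before to 20 after the annotated start are shown for Rpl31 and Rps25, which passed the test for LPS below, and for Rps9 and Rps12, among the most abundant members. Capitals mark runs of 7 or more pyrimidines, and in Rpl31 also a CCGGAAG.
Rpl31, chr1:39367791-39367870, plus strand: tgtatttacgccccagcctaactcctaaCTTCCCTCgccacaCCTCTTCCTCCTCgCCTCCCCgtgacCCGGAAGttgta
Rps25, chr9:44407654-44407733, plus strand: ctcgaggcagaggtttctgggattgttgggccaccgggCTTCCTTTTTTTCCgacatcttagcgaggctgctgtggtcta
Rps9, chr7:3703981-3704060, plus strand: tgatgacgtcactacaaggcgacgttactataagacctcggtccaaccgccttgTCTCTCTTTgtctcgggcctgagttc
Rps12, chr10:23787190-23787269, minus strand: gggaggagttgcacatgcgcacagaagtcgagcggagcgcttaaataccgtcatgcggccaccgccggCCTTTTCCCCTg

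Depth was low. The table's reads summed to 5347060, with 399702 to 526757 per library. All 10 listed neutrophil markers were measured, with summed levels of 19489 to 21454 CPM, which is reads per scaled library, in KO-LPS, 18334 to 18659 in KO-Saline, 16972 to 19877 in WT-LPS and 13366 to 17908 in WT-Saline libraries. Of these 10 markers, 4 were called for LPS in KO-labelled and 8 in WT libraries, so single neutrophil markers also differed between LPS and saline. Markers of immature neutrophils (6 of 10 measured, with 2 called for LPS in KO-labelled and 4 in WT libraries) summed to 2278, 8317 and 7301 CPM in KO-LPS replicates 1, 2 and 3 and to 1792 to 2024 in KO-Saline. They summed to 5553 to 9247 CPM in WT-LPS and to 1653 to 2486 in WT-Saline. Platelet markers (3 of 6 measured, with 1 and 3 called) summed to 496, 217 and 247 CPM in KO-LPS replicates 1, 2 and 3, 651 to 837 in KO-Saline, 161 to 255 in WT-LPS and 523 to 779 in WT-Saline. Of monocyte markers 5 of 8 were measured, with 1 and 3 called, and they summed to 432 to 646, 441 to 494, 593 to 683 and 423 to 545 CPM in KO-LPS, KO-Saline, WT-LPS and WT-Saline libraries. Markers of dendritic cells (4 of 6 measured), T and NK cells (3 of 11), B cells (Cd79a alone of 6), erythroid cells (1 of 6) and eosinophils and basophils (1 of 6) each summed to 216 CPM or less in every library. Dendritic cell markers summed to 22.2 to 104 CPM in KO-LPS, against 58.4 to 108 in KO-Saline, with 0 called, and to 24.2 to 47.4 in WT-LPS, against 104 to 214 in WT-Saline, without overlap and with 1 called. Of the T and NK cell markers 0 and 1 were called. Cd79a was called for LPS in both genotypes, at 34.7 to 104 CPM in KO-LPS, against 7.30 to 28.9 in KO-Saline, and 101 to 134 in WT-LPS, against 9.68 to 29.6 in WT-Saline libraries. KO-LPS replicate 1 therefore stood apart from the other LPS libraries in the immature and platelet lists, close to the saline libraries. How far that mouse was exposed to LPS cannot be told from the files. It was kept under its label, which bears on every KO-LPS and interaction value, and calls that change without it are given. Hmgb1 itself had 6 to 30 reads per library in KO-labelled libraries (101 in all) and 8 to 34 in WT libraries (100 in all). Reads over the whole gene do not show whether an exon was deleted, and the libraries are called KO-labelled throughout. Whether the 3 libraries of each group are 3 mice is not stated in the labels. The p-values therefore reflect the spread among these libraries alone, and that spread may be technical.

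Ribosomal protein genes were thinly covered in these libraries. Their mean reads per library had a median of 8.67, from 1.33 for Rps28 and Rpl37a to 143.75 for Rps9, against a median of 11.42 for the 8618 other protein-coding genes. Of the 73 genes, 28 lay above that median, 31 had a mean of 10 reads or more, and 52 had reads in all 12 libraries. Ranked by reads, Rps9 and Rps20 came 602 and 829 of 9374, Rps12 followed at 2060, and the median rank of the members was 5310. Per kilobase of annotated exon, the order was the other way round. Ribosomal protein genes had a median level of 10.1 CPM per kb, against 5.83 for the other protein-coding genes, and 56 of the 73 lay above that value, since their exons were shorter, with a median of 1781 bases against 4581. Together they took 12347 reads, and the 5 genes of highest level took 35.8% of these.

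**Figure D1:**
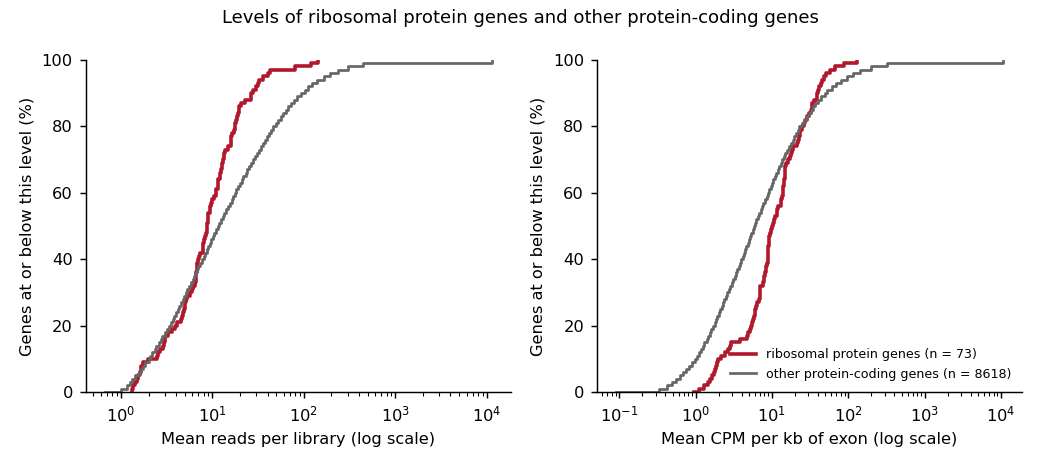
Share of genes (vertical axis, %) at or below a given level for the 73 ribosomal protein genes (red) and 8618 other protein-coding genes (grey), by mean reads per library (left) and by mean CPM per kb of exon (right), both on log axes. The red curve ends at 143.75 reads, where the grey curve runs on, and on the per-kb axis its median of 10.1 lies right of the grey median of 5.83.

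The small subunit held both the most and some of the least covered members. Rps9, a small subunit protein at the mRNA entry site, was the most abundant (chr7:3703993-3706897, mean 325.67 CPM). It had 422, 303 and 304 CPM in KO-LPS, 425, 360 and 350 in KO-Saline, 280, 295 and 281 in WT-LPS and 276, 334 and 278 in WT-Saline libraries. The KO-labelled libraries lay above the WT libraries of the same treatment without overlap, in both treatments, but the difference did not pass the test given below. Rps20, in the head of the small subunit, averaged 242.09 CPM. Rps12 averaged 94.9 CPM. It had 107, 116 and 111 CPM in KO-LPS, 70.9, 111 and 73 in KO-Saline, 97.2, 139 and 110 in WT-LPS and 67.8, 67.6 and 68.9 in WT-Saline libraries. Over the 31 small subunit members, mean reads ran from 1.33 to 143.75 with a median of 7.25, and the median level was 9.17 CPM per kb.

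In the large subunit, the members of highest level were Rpl5 (mean 92.2 CPM) and Rpl31 (73 CPM). The 37 large subunit members had mean reads of 1.33 to 40.42, with a median of 8.67, and a median level of 10.5 CPM per kb. The P stalk, which recruits the elongation factors, was covered more evenly. Rplp0, its base, averaged 29.0 reads per library, Rplp2 17.33 and Rplp1 15.83. Per length, the stalk genes had a median of 38.9 CPM per kb, and Rplp1, at 71.9 CPM per kb, was second among all 73 to Rps9 at 129.13, followed by Rps20 at 59.3.

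Several members share their position with other transcripts. Small nucleolar RNAs, which guide the modification of ribosomal RNA, are annotated within the span of 27 members, on the same strand. These hosts had a median of 10.1 mean reads, against 8.04 for the other 46. For 16 members (21.9%, against 36.7% of all matched genes) an exon lay across an exon of another gene on the other strand. The table held 10 such neighbours of 9 members, and 8 of these 10 had more reads than the member. The sources used here do not give the strand setting of the counting. Reads in the shared bases of these 16 genes therefore cannot be told apart from those of their neighbours. The shared bases ran from 14 in Rps2 to 953 in Rpl5. For 25 members an exon lay across an exon of another gene on the same strand, where a strand setting could not separate the reads. Among them were Rps20 and Rpl21, whose exons overlap annotated small nucleolar RNAs. Ribosomal protein genes also have many processed pseudogenes, and Rpl37rt is a retrotransposed copy of Rpl37. How reads that fit several copies were counted is not given either, which leaves the levels of all members uncertain to that extent.

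The 73 genes took 0.208% to 0.255% of all reads in each library. The share was 0.240 ± 0.0216% in KO-LPS, 0.224 ± 0.0117% in KO-Saline, 0.215 ± 0.00645% in WT-LPS and 0.245 ± 0.00574% in WT-Saline libraries (SD, n = 3 each). The WT-LPS libraries, at 0.208% to 0.221%, all lay below the WT-Saline libraries, at 0.241% to 0.252%, while the KO-LPS and KO-Saline libraries overlapped. The ratio of LPS to saline was 1.07 in KO-labelled and 0.877 in WT libraries, and without KO-LPS replicate 1 the KO-labelled ratio was 1.04. Without the 2 most abundant genes, Rps9 and Rps20, the WT ratio was 0.937, and the WT-LPS libraries (0.154% to 0.179%) overlapped the WT-Saline libraries (0.176% to 0.188%). No test was made on this share. In such bulk samples fewer cells of a type and less RNA per cell cannot be told apart, and the immature, platelet and other markers given above also differed between LPS and saline. Their part in the share was not tested.

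**Figure D2:**
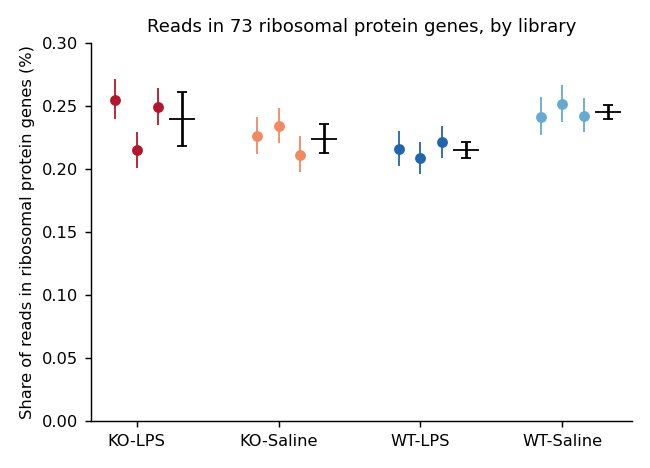
Percent of all reads in the table that fell in the 73 ribosomal protein genes, for each of the 12 libraries (coloured points, with 95% exact binomial intervals that cover counting error only) and as group mean with SD (black, n = 3). The WT-LPS libraries lie between 0.208% and 0.221%, below the WT-Saline libraries, and the KO-LPS libraries overlap the KO-Saline libraries.

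The first question put to the data was how LPS changed ribosomal protein transcripts in circulating neutrophils of each genotype. Few of the 73 genes were called. In KO-labelled libraries, 1 gene (1.37%) passed an adjusted p under 0.05 (limma, Benjamini-Hochberg over 9374 genes), when 3.35% of all genes did (1.99% rose and 1.35% fell). In WT libraries 3 genes (4.11%) passed, 1 higher and 2 lower in LPS, when 11.7% of all genes did (6.72% rose and 4.96% fell). Both counts were below the share of all genes called in the same comparison. At an unadjusted p under 0.05, 5 members were found in KO-labelled libraries (6.85%, against 17.2% of all genes) and 8 in WT libraries (11%, against 24.4%). The median log2 fold change over the members was 0.10 in KO-labelled libraries, with 42 above 0 and 31 below, when the median over all genes was 0.09. In WT libraries it was -0.07, with 33 above and 40 below, against 0.06. Members whose LPS and saline libraries did not overlap numbered 4 higher and 1 lower in KO-labelled libraries (9.67% and 6.89% of all genes) and 3 higher and 7 lower in WT libraries (16.5% and 14.1%).

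**Figure D3:**
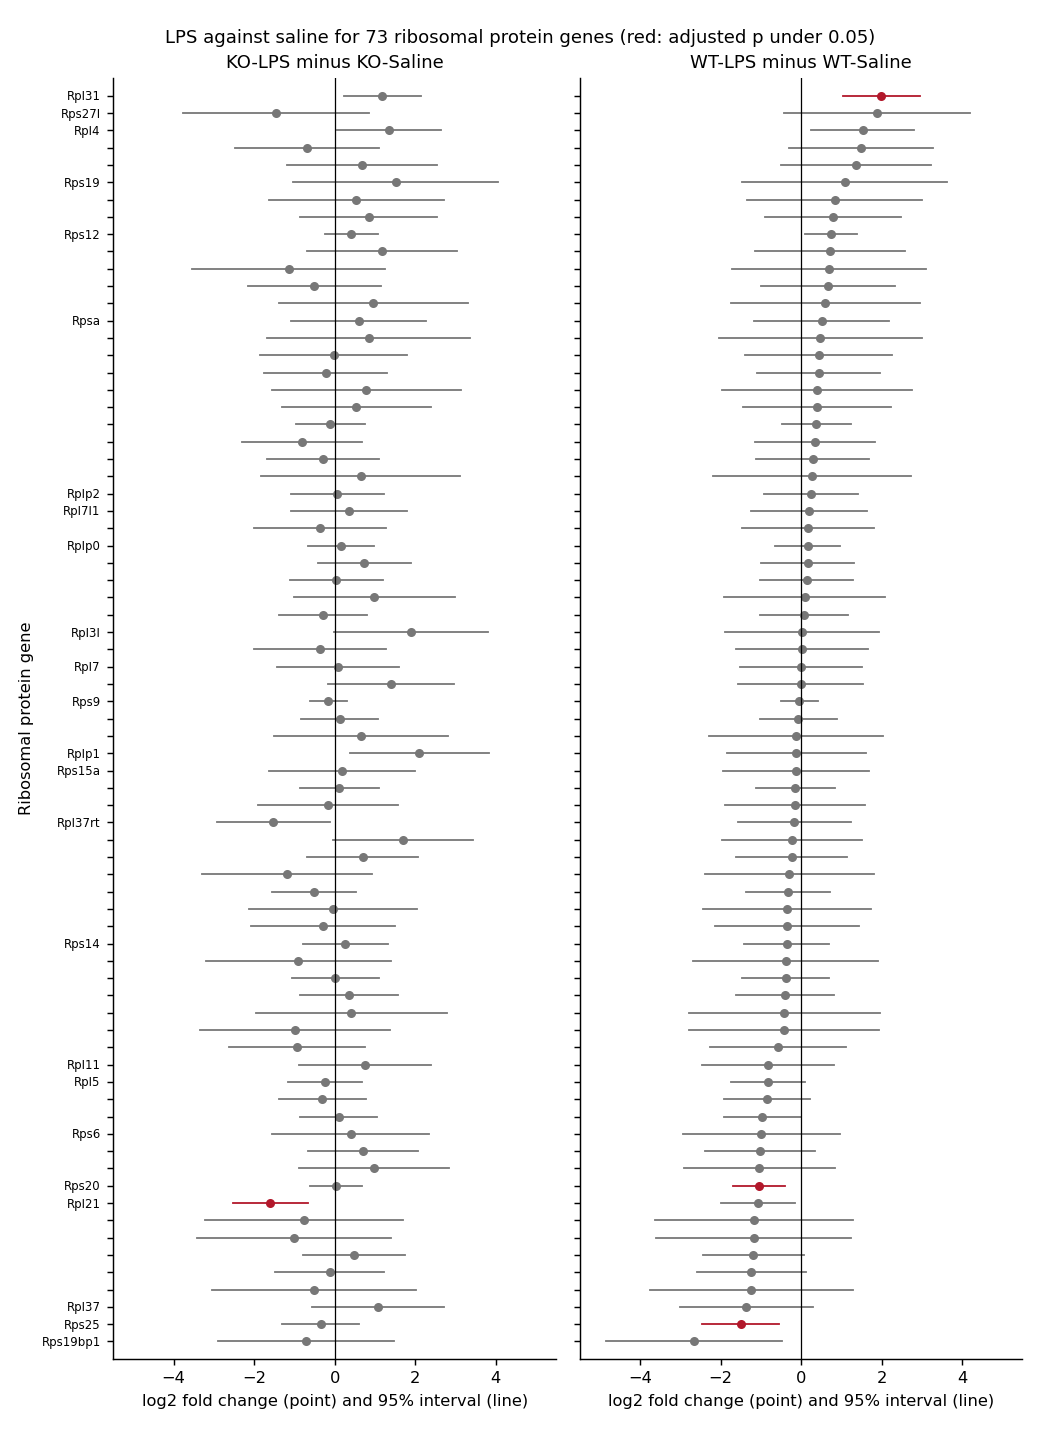
Log2 fold change (point) and 95% interval (line) of LPS against saline for each of the 73 genes, in KO-labelled (left) and WT (right) libraries, ordered by the WT value, with genes of adjusted p under 0.05 in red and names only for the genes described in the text. Rpl21 is red on the left, Rpl31, Rps20 and Rps25 on the right, and most intervals cross 0. The WT value of Rps19bp1 rests on 0 reads in all WT-LPS libraries.

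In KO-labelled libraries the gene that passed was Rpl21, a large subunit protein (chr5:146832890-146837032). It had 74.7, 34.5 and 15 CPM in KO-LPS libraries, against 76.1, 126 and 122 CPM in KO-Saline libraries. All 3 KO-LPS values lay below all 3 KO-Saline values, replicate 1 only just. Rpl21 fell by 1.60 ± 0.45 on the log2 scale (SE; adjusted p = 0.0465, limma). The call was lost when any library but KO-LPS replicate 1 was left out, KO-LPS replicates 2 and 3, all KO-Saline and all WT libraries included (adjusted p 0.0533 to 0.336). Without KO-LPS replicate 1 the change was -2.15 (adjusted p = 0.000559). In WT libraries Rpl21 had 49.8, 38.0 and 40.9 CPM after LPS, against 121, 95.1 and 65.2 after saline. These groups did not overlap either, and the difference of -1.08 ± 0.45 had an adjusted p of 0.133, and 0.0432 when the WT libraries were fitted alone.

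Next by p in KO-labelled libraries were Rpl31 and Rplp1, which did not pass. Rpl31 is given below with its WT values. Rplp1, a stalk protein, had 50.7, 46.9 and 53.6 CPM in KO-LPS, against 55.1, 23.9 and 0 in KO-Saline libraries. The groups overlapped, and the difference was 2.11 ± 0.84 (adjusted p = 0.186). KO-Saline replicate 3, which held no read of Rplp1, also had the most genes without reads, 19.2% of all genes and 11 of the 73. A count of 0 there allows up to 7.30 CPM, counting 3 reads as the limit. Without that library the difference was 0.46 (adjusted p = 0.777), and without KO-Saline replicate 1 it was 3.23 (adjusted p = 0.0438).

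Rpl31, a large subunit protein near the exit of the peptide tunnel (chr1:39367842-39371911), had the smallest p of all members for LPS in WT libraries. It had 40.02, 101 and 109 CPM in KO-LPS libraries, against 39.4, 36.9 and 24.3 in KO-Saline libraries. In WT libraries it had 197, 84.4 and 138 CPM after LPS, against 46.0, 16.9 and 42.8 after saline. In both genotypes the groups did not overlap, with KO-LPS replicate 1 barely above the highest KO-Saline library. The difference was 1.19 ± 0.46 in KO-labelled libraries (adjusted p = 0.174), and Rpl31 rose by 1.99 ± 0.46 on the log2 scale in WT libraries (adjusted p = 0.00424, limma). Without KO-LPS replicate 1 the KO-labelled difference was 1.64 (adjusted p = 0.0139). The WT call was kept whichever single library was left out, and lost without the mean-variance trend (adjusted p = 0.0644). The trend, which lets the spread depend on the level, was also needed for the calls of Rpl21, Rps20 and Rps25 (adjusted p 0.120 to 0.223 without it). Rpl31 shares 420 exonic bases with Tbc1d8, which runs on the other strand, so part of its reads may be those of Tbc1d8. Tbc1d8 rose by 1.59 ± 0.39 in KO-labelled libraries (adjusted p = 0.0178) and differed by 0.92 ± 0.39 in WT libraries (adjusted p = 0.132).

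Rps20 and Rps25 of the small subunit were lower after LPS in WT libraries. Rps20 (chr4:3831334-3835665) had 381, 168 and 187 CPM in KO-LPS libraries, against 165, 265 and 253 in KO-Saline libraries, a difference of 0.04 ± 0.32 (adjusted p = 0.973). KO-LPS replicate 1 held the highest of these values, and the difference without it is not reported here, so its direction is uncertain. In WT libraries it had 116, 253 and 130 CPM after LPS, against 247, 366 and 374 after saline. WT-LPS replicate 2 overlapped WT-Saline replicate 1. Rps20 fell by 1.04 ± 0.32 in WT libraries (adjusted p = 0.0298, limma). That call was lost without WT-LPS replicate 1 or 3 or WT-Saline replicate 2 or 3, with adjusted p of 0.120 to 0.165.

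Rps25, known for its need in translation from some viral internal entry sites (chr9:44407139-44410427), had 77.4, 64.1 and 38.6 CPM in KO-LPS libraries, against 78.7, 73.8 and 68.1 in KO-Saline libraries. That difference was -0.34 ± 0.47 (adjusted p = 0.770). In WT libraries it had 45, 10.5 and 35.3 CPM after LPS, against 72.6, 57.1 and 102 after saline, and the groups did not overlap. Rps25 fell by 1.5 ± 0.47 in WT libraries (adjusted p = 0.0322, limma). Without WT-LPS replicate 2, where it had 5 reads, the change was -0.90 (adjusted p = 0.239), and the call was also lost without WT-Saline replicate 1 (adjusted p = 0.0796) or 3 (adjusted p = 0.153). Rps25 shares 668 exonic bases with Ccdc84 and Trappc4 on the other strand. In WT libraries Ccdc84 differed by 0.03 ± 0.33 (adjusted p = 0.975) and Trappc4 by 0.13 ± 0.91 (adjusted p = 0.953).

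**Figure D4:**
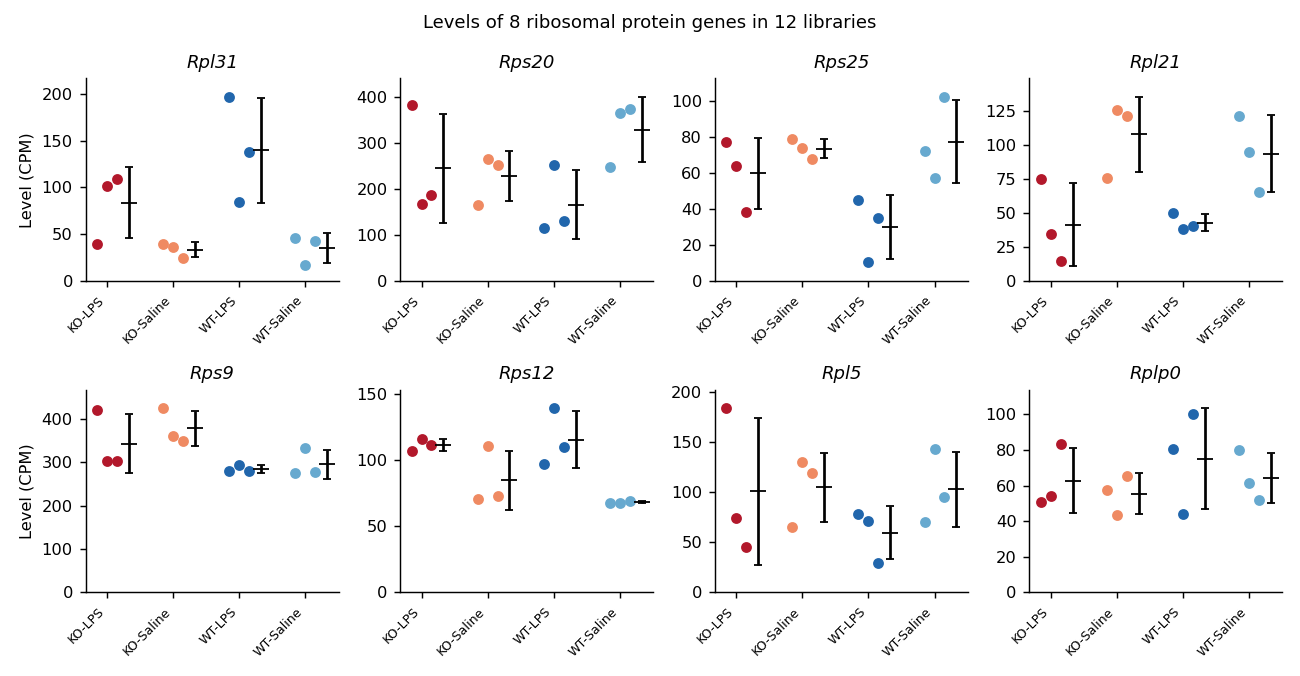
Level in CPM (vertical axes from 0, a scale for each gene) of 8 ribosomal protein genes in the 12 libraries, as points by group, with group mean and SD in black (n = 3). Rpl31 is higher in the WT-LPS libraries (84.4 to 197 CPM) than in the WT-Saline libraries (16.9 to 46.0 CPM), Rps25 and Rpl21 are lower there, and the LPS and saline libraries of Rps9 and Rplp0 overlap.

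Other members were set apart by LPS in WT libraries without passing the adjusted threshold. Rpl4, which lines the peptide tunnel, had 49.8, 27.4 and 55.8 CPM in WT-LPS libraries, against 14.5, 12.7 and 14.9 in WT-Saline libraries, a difference of 1.53 ± 0.63 (adjusted p = 0.121). In KO-labelled libraries it had 24.0, 34.5 and 53.6 CPM after LPS, against 7.87, 28.2 and 9.73 after saline, a difference of 1.36 ± 0.63 (adjusted p = 0.261). Rps12 differed by 0.42 ± 0.32 in KO-labelled (adjusted p = 0.545) and by 0.73 ± 0.32 in WT libraries (adjusted p = 0.144). Rps19bp1, which binds Rps19, had 0 reads in all 3 WT-LPS libraries, against 2, 3 and 3 in WT-Saline libraries, both at or under the limit of 3 reads, so no fold is given. By contrast, the most abundant member, Rps9, differed by -0.15 ± 0.23 between LPS and saline in KO-labelled libraries and by -0.05 ± 0.23 in WT libraries. Its 95% interval ran from -0.62 to 0.31 in KO-labelled and from -0.51 to 0.42 in WT libraries, within a change of 2-fold either way.

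The second question was whether ribosomal protein transcripts differed between the genotypes. None of the 73 passed an adjusted p under 0.05 in saline, in LPS or averaged over treatments (limma), when 0.0107%, 0.00% and 0.0107% of all genes did. At an unadjusted p under 0.05 the counts were 1, 2 and 2 (1.37%, 2.74% and 2.74%, against 6.86%, 5.02% and 5.65% of all genes). The median log2 difference of KO-labelled from WT libraries was -0.07 in saline, 0.20 in LPS and -0.01 averaged, when the medians over all genes were -0.02, -0.01 and -0.01. The sign of each of these 3 member medians changed under at least 1 alternative, with ranges of -0.23 to 0.11, -0.02 to 0.33 and -0.06 to 0.08. Groups did not overlap for 3 members that were higher and 4 that were lower in KO-Saline than in WT-Saline libraries (5.82% and 6.28% of all genes), and for 5 higher and 2 lower in KO-LPS than in WT-LPS libraries (4.32% and 5.47%).

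In saline, Rplp1 differed by -1.51 ± 0.84 (adjusted p = 0.788), but by 0.14 without KO-Saline replicate 3, and Rps15a, of the small subunit, by -1.57 ± 0.89 (adjusted p = 0.794). Rps15a had 5.25, 2.17 and 9.73 CPM in KO-Saline libraries, against 14.5, 21.1 and 16.8 in WT-Saline libraries, the KO-Saline values resting on 1 to 4 reads.

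In LPS the smallest p was that of Rps25, at 1.13 ± 0.47 (adjusted p = 0.949), with the values given above. Rps19bp1 had 8, 0 and 3 reads in KO-LPS libraries, against 0 in all WT-LPS libraries. Rpl7, a large subunit protein, had 24.0, 24.7 and 38.6 CPM in KO-LPS, against 16.6, 8.44 and 7.43 in WT-LPS libraries, which did not overlap (1.40 ± 0.74, adjusted p = 0.949). In saline Rpl7 had 39.4, 47.7 and 9.73 CPM in KO-Saline, against 16.9, 8.46 and 7.45 in WT-Saline libraries, and these overlapped. Averaged over treatments Rpl7 differed by 1.35 ± 0.52 (adjusted p = 0.827) and Rps15a by -1.42 ± 0.63 (adjusted p = 0.856). Rps9, whose KO-labelled libraries lay above the WT libraries in both treatments, differed by 0.30 ± 0.16 (adjusted p = 0.881).

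The third question was whether the LPS response itself differed between the genotypes. None of the 73 interactions passed (limma), when 0.00% of all genes did, and 3 had an unadjusted p under 0.05 (4.11%, against 5.97% of all genes). The response of KO-labelled minus that of WT libraries was 1.08 ± 0.45 for Rps20 (adjusted p = 0.794) and 2.44 ± 1.13 for Rpl37 (adjusted p = 0.820). The third was Rps27l (adjusted p = 0.820), which had 0 to 5 reads per library. The median over the members was 0.19 (range over the alternatives -0.06 to 0.41), when that over all genes was 0.01. Without KO-LPS replicate 1 the value for Rps20 was 0.71 (adjusted p = 0.864). Rpl37 had 24.0, 14.8 and 17.2 CPM in KO-LPS, 7.87, 13.0 and 4.86 in KO-Saline, 11.9, 10.5 and 3.72 in WT-LPS and 12.1, 21.1 and 39.1 in WT-Saline libraries. Rpl37 was higher after LPS in KO-labelled libraries and lower in WT libraries, without overlap in either, and neither difference passed (adjusted p = 0.534 and 0.316). These levels rest on 9, 6 and 8 reads in KO-LPS, 3, 6 and 2 in KO-Saline, 5, 5 and 2 in WT-LPS and 5, 10 and 21 in WT-Saline libraries. The nearest WT values, 11.9 and 12.1 CPM, were 5 reads each and differ only by library scaling. That Rps20, Rps25 and Rpl31 passed for LPS in WT libraries and Rpl21 in KO-labelled libraries does not show a difference in response. The interaction was 1.16 ± 0.66 for Rps25 (adjusted p = 0.870), -0.80 ± 0.66 for Rpl31 (adjusted p = 0.887) and -0.52 ± 0.64 for Rpl21 (adjusted p = 0.939).

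Of the members picked beforehand for a known role, Rpl5, Rpl11, Rps6, Rps19, Rps14 and Rpsa did not pass in any comparison. Rpl5 and Rpl11 join the 5S ribosomal RNA and, when free, bind Mdm2 and so stabilise p53. Rpl5 (mean 40.42 reads) had 184, 74 and 45 CPM in KO-LPS, 65.6, 130 and 119 in KO-Saline, 78.2, 71.7 and 29.7 in WT-LPS and 70.2, 144 and 95 in WT-Saline libraries. LPS and saline overlapped in both genotypes, with a difference of -0.24 ± 0.45 in KO-labelled (adjusted p = 0.842) and -0.83 ± 0.45 in WT libraries (adjusted p = 0.267). Rpl11 had 26.8 ± 4.58 CPM in KO-LPS and 15.2 ± 0.578 in KO-Saline, without overlap, and 14.1 ± 14.9 in WT-LPS and 19.6 ± 14.3 in WT-Saline libraries (SD, n = 3 each). Its LPS differences of 0.76 ± 0.80 and -0.81 ± 0.80 had adjusted p of 0.695 in KO-labelled and 0.601 in WT libraries.

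Rps6, the substrate of the S6 kinases downstream of mTORC1, had 12 ± 1.88 CPM in KO-LPS, 18.5 ± 16.4 in KO-Saline, 10.9 ± 3.45 in WT-LPS and 22.8 ± 6.51 in WT-Saline libraries. Rps19, mutated in Diamond-Blackfan anaemia in humans, was hardly covered, with 0 to 11 reads per library. Rps14, needed for assembly of the small subunit, had 45.2 ± 17.7 CPM in KO-LPS, 37.6 ± 14.3 in KO-Saline, 28.7 ± 11 in WT-LPS and 35.5 ± 7.20 in WT-Saline libraries. Rpsa, also known as a laminin receptor precursor, had 29.1 ± 11.7, 19.2 ± 8.53, 30.2 ± 17.4 and 35.6 ± 34.4 CPM in KO-LPS, KO-Saline, WT-LPS and WT-Saline libraries. The groups of each of these genes overlapped in every comparison, apart from Rps6, whose WT-LPS libraries all lay below the WT-Saline libraries (-1.0 ± 0.95, adjusted p = 0.587).

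Rpl3l is in mice a striated-muscle paralogue of Rpl3. It had 56, 27.1 and 17.2 CPM in KO-LPS, 21, 19.5 and 0 in KO-Saline, 33.2, 12.7 and 20.4 in WT-LPS and 4.84, 42.3 and 35.4 in WT-Saline libraries, where Rpl3 was not analysed here. The difference between LPS and saline was 1.91 ± 0.93 in KO-labelled (adjusted p = 0.291) and 0.03 ± 0.93 in WT libraries (adjusted p = 0.991). Rps27l, a p53-induced paralogue of Rps27, had 0, 1 and 0 reads in KO-LPS, 0, 3 and 4 in KO-Saline, 5, 1 and 5 in WT-LPS and 0, 0 and 3 in WT-Saline libraries. Rpl7l1, a nucleolar paralogue of Rpl7, had 19.2 ± 13.2 CPM in KO-LPS, 12.8 ± 0.528 in KO-Saline, 24.9 ± 9.89 in WT-LPS and 22.8 ± 11.4 in WT-Saline libraries. Rpl37rt, at 39.3 CPM per kb, had a higher level per length than Rpl37, at 8.92, and how reads common to both were counted is not known.

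The stalk genes Rplp0 and Rplp2 were not called in any comparison. Rplp0, much used as a control transcript, had 50.7, 54.3 and 83.6 CPM in KO-LPS, 57.7, 43.4 and 65.7 in KO-Saline, 80.6, 44.3 and 100 in WT-LPS and 79.9, 61.3 and 52.2 in WT-Saline libraries. LPS against saline gave 0.16 ± 0.40 in KO-labelled (adjusted p = 0.857) and 0.16 ± 0.40 in WT libraries (adjusted p = 0.884). Rplp2 gave 0.07 ± 0.57 (adjusted p = 0.972) and 0.24 ± 0.57 (adjusted p = 0.847), with 32.7 ± 19.1 CPM in KO-LPS, 29.2 ± 17.9 in KO-Saline, 48.4 ± 6.98 in WT-LPS and 42.1 ± 14.3 in WT-Saline libraries (SD, n = 3 each).

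A gene that missed the threshold is not shown to be the same in both groups, because the intervals were wide. The 95% interval of the log2 fold change lay within a change of 2-fold either way for only 4 of the 73 genes for LPS in KO-labelled libraries, 2 for LPS in WT libraries, 6 for genotype in saline, 2 in LPS, 14 averaged over treatments and 1 for the interaction. From its centre to either end it had a median width of 1.65 on the log2 scale in the pairwise comparisons, 1.17 for the average and 2.33 for the interaction. For the 31 members with at least 10 mean reads this width was 1.08 in the pairwise comparisons. The median standard error was 0.80 for the members and 0.71 over all genes. These intervals are not adjusted for the number of genes tested, and a change had to be larger still to pass the adjusted threshold. Changes up to and somewhat beyond these widths were therefore not detectable for most members at this depth.

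Genes of the ribosome and its supply outside the naming rule were mostly not called either. Fau, which encodes Rps30 fused to a ubiquitin-like protein, had 35, 26 and 26 reads in KO-LPS, 32, 44 and 47 in KO-Saline, 21, 21 and 12 in WT-LPS and 30, 47 and 42 in WT-Saline libraries. It fell by 1.15 ± 0.38 in WT libraries (adjusted p = 0.0478), a call lost in 11 of 20 alternatives. Those included leaving out any WT-Saline or KO-Saline library or WT-LPS replicate 2 or 3, with adjusted p of 0.0522 to 0.254. It differed by -0.48 ± 0.38 in KO-labelled libraries (adjusted p = 0.571). Rack1, a scaffold on the small subunit, was not called in either. None of the 13 measured elongation factors and other TOP mRNAs (of 14 listed), 30 initiation factors (of 37), 12 genes of RNA polymerase I transcription (of 21) and 8 other snoRNA host genes (of 23) was called for LPS in either genotype (limma). Over all genes 3.35% were called in KO-labelled and 11.7% in WT libraries. When KO-LPS replicate 1 was left out, 2 RNA polymerase I genes were called in KO-labelled libraries, when 11.5% of all genes were. In WT libraries 1 such gene and 1 initiation factor were then called, when 15.2% of all genes were. At an unadjusted p under 0.05 those lists held 1, 3, 2 and 0 genes in KO-labelled and 0, 1, 2 and 0 genes in WT libraries. Over all genes these shares were 17.2% and 24.4%. Their median log2 fold changes were -0.21, 0.32, 0.17 and 0.17 in KO-labelled and 0.00, 0.32, 0.05 and 0.40 in WT libraries, when those over all genes were 0.09 and 0.06. Eef1a1, an elongation factor with 70.2 mean reads, differed by 0.00 ± 0.30 in both genotypes.

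Of 43 measured ribosome biogenesis factors (81 listed), 1 fell in KO-labelled libraries (2.33%, against 3.35% of all genes), and 1 rose and 2 fell in WT libraries (6.98%, against 11.7%), with medians of 0.07 and -0.22. Without KO-LPS replicate 1, 2 were called in KO-labelled libraries, when 11.5% of all genes were. Krr1, a factor of small subunit assembly, had 2164, 572 and 641 reads in KO-LPS, against 2419, 3508 and 2728 in KO-Saline libraries, and 550, 703 and 661 in WT-LPS, against 2242, 3332 and 2882 in WT-Saline libraries. It fell by 1.61 ± 0.32 in KO-labelled (adjusted p = 0.00478) and by 2.14 ± 0.32 in WT libraries (adjusted p = 3.7e-05). KO-LPS replicate 1 was close to saline for Krr1, and without it the KO-labelled change was -2.30. That call was lost without KO-LPS replicate 2 (adjusted p = 0.0777) or 3 (adjusted p = 0.0741). In WT libraries Bysl, another assembly factor, rose by 1.44 ± 0.20 (adjusted p = 1.9e-05), and Dkc1, the pseudouridine synthase of snoRNA particles, fell by 1.35 ± 0.37 (adjusted p = 0.0131). The Dkc1 call was lost without WT-LPS replicate 1 or 3 or WT-Saline replicate 2 or 3, with adjusted p of 0.0565 to 0.0991.

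Of 25 measured regulators of ribosomal protein mRNA translation (27 listed), 1 rose and 1 fell in KO-labelled libraries, and 3 rose and 1 fell in WT libraries, with medians of -0.06 and 0.09. These calls are 8% and 16% of the list, against 3.35% and 11.7% of all genes. In KO-labelled libraries 5 were called without KO-LPS replicate 1, against 11.5% of all genes. Rptor, the mTORC1 scaffold Raptor, had 9, 210 and 223 reads in KO-LPS, against 21, 3 and 10 in KO-Saline libraries, and 136, 85 and 175 in WT-LPS, against 0, 7 and 1 in WT-Saline libraries. It rose by 3.06 ± 0.86 in KO-labelled (adjusted p = 0.0456) and by 6.15 ± 0.86 in WT libraries (adjusted p = 1.9e-05). Again KO-LPS replicate 1 was at the saline level, and without it the KO-labelled change was 4.49 (adjusted p = 7.1e-06). The KO-labelled call was lost without KO-LPS replicate 2 or 3, KO-Saline replicate 2 or 3, any WT-LPS library or WT-Saline replicate 3, with adjusted p of 0.0529 to 0.329. Eef2k, the kinase that halts elongation, had 18, 1 and 0 reads in KO-LPS, against 23, 29 and 46 in KO-Saline, and 2, 1 and 5 in WT-LPS, against 29, 34 and 50 in WT-Saline libraries. It fell by 3.72 ± 0.89 (adjusted p = 0.0169) in KO-labelled libraries and fell by 3.77 ± 0.89 (adjusted p = 0.00488) in WT libraries, and the KO-labelled call was lost without KO-LPS replicate 2 or 3 or any KO-Saline library (adjusted p 0.0512 to 0.170). Without KO-LPS replicate 1 the KO-labelled value was -5.26 (adjusted p = 5.1e-06), a fitted value that depends on the 0.5 reads added, since 1 and 0 reads were left in KO-LPS. The ribosomal S6 kinase (RSK) genes Rps6ka1 (1.53 ± 0.37, adjusted p = 0.00516, and 0.0627 without WT-Saline replicate 3) and Rps6ka2 (1.5 ± 0.49, adjusted p = 0.0434) rose in WT libraries. The Rps6ka2 call was lost whichever WT library was left out (adjusted p 0.0506 to 0.205). Mtor and Larp1 were not called, with 11.9 and 5.17 mean reads. Among 35 mitochondrial ribosomal protein genes, 0 were called in KO-labelled libraries, against 3.35% of all genes. At an unadjusted p under 0.05 (limma) there were 2, against 17.2% of all genes. Mrps25 (0.71 ± 0.20, adjusted p = 0.0202) and Mrpl20 (adjusted p = 0.0417, with 6, 8 and 5 reads in WT-LPS, against 1, 0 and 0 in WT-Saline libraries) rose in WT libraries. The WT calls are 5.71% of the list, against 11.7% of all genes. Without KO-LPS replicate 1, 2 genes were called in KO-labelled libraries, when 11.5% of all genes were. The median of this list was 0.36 in KO-labelled and 0.18 in WT libraries. The Mrps25 and Mrpl20 calls were lost without WT-LPS replicate 1 or 3 or WT-Saline replicate 2 or 3, that of Mrpl20 also without WT-LPS replicate 2, with adjusted p of 0.0634 to 0.137. Exonic bases are shared with a gene on the other strand by Krr1 (Glipr1), Bysl (Ccnd3), Dkc1 (Mpp1), Rptor (Rptoros), Eef2k (Gm15774), Rps6ka1 (Gm12977), Mrps25 (Nr2c2) and Rack1 (Trim41), so their reads may be those of that gene. Without the mean-variance trend, the calls of Bysl and, in WT libraries, of Krr1 and Rptor were kept, and those of the other genes named here, Fau included, were lost (adjusted p 0.0514 to 0.315). The immature, platelet and other markers given above differed between LPS and saline in the same libraries, and their part in any of these changes was not tested.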

How the data were processed

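RNA of blood neutrophils was purified with a miRNeasy micro kit and made into libraries with Tecan's Universal Plus Total RNA kit and mouse probes, per the labels' protocols. Per the submitters' processing notes the build was mm10. The sources used here do not give the aligner, counter, annotation, strand setting or gene filter. The authors deposited log2 values for 9374 genes in 12 libraries. Their form is log2 CPM with 0.5 reads added, and 100% of values in each column gave whole reads (within a relative 0.0001), so depth is known. Fold changes on this scale understate changes of low genes.

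The deposited log2 values were fitted with limma 3.58.1 in R 4.3.3, as 4 group means over all 12 libraries with a mean-variance trend, two-sided, with Benjamini-Hochberg adjustment over all 9374 genes of each comparison; ± after a log2 value is the standard error. The fit was also run on simulated reads, in which all genes had the same spread beyond counting error and no library stood apart. That run does not cover a deviating library such as KO-LPS replicate 1. Reads and CPM, per scaled library size, were recovered from the log2 values. Intervals of shares are 95% exact binomial intervals and, like the limit of 3 reads for a count of 0, cover counting error only, since without molecular identifiers several reads can come from 1 molecule. Exons, coordinates (1-based) and overlaps are from GENCODE M21 (mm10). Coordinates of start windows are RefSeq's.

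Genes named are the called members and those of smallest p per comparison, the most abundant, the P stalk, paralogues, Rpl5, Rpl11, Rps6, Rps19, Rps14, Rpsa, and the called genes of each list. Rpl4, Rps6ka2 and values of Rpl21, Rps9 and Rps12 in further comparisons were added after their values were seen. Some genes that the rule names are not reported here. The members and lists were chosen with earlier results of these data known. Alternatives were the trend, a minimum of 10 mean reads, log2(CPM + 5), plain library totals, quantile normalization, voom weights on the whole reads, the compared libraries alone, a replicate block and each library left out. Leaving out Rps9 and Rps20, or single libraries, from the share was chosen after seeing the data. Versions of Python and pandas were 3.11.15 and 2.3.3.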

Additional observations from a re-analysis of the deposited data

How the results depend on the processing

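For LPS in WT libraries, 3 members were called, when 11.7% of all genes were. With 1 library left out 1 to 3 were called (7.83% to 15.2% of all genes), the 1 being Rpl31, without WT-Saline replicate 3. With the compared libraries alone 4 were called, Rpl21 added, when 15.3% of all genes were. Without the mean-variance trend 0 were called, Rpl31 at an adjusted p of 0.0644 (limma), when 3.87% of all genes were. For LPS in KO-labelled libraries 1 was called, when 3.35% of all genes were. The count was 0 without the trend, 0 with a minimum of 10 mean reads and 0 with the compared libraries alone. In those fits 0.171%, 4.73% and 0.875% of all genes were called. With 1 library left out the count was 0 to 2 (0.341% to 11.5% of all genes), the 2 being Rpl21 and Rpl31, without KO-LPS replicate 1. The calls over all genes then numbered 1076, against 314. In the genotype comparisons and the interaction, 0 members were called under every alternative run, when at most 0.331% of all genes were. Rplp1 in KO-Saline against WT-Saline ran from -2.63 to 0.14 when 1 library was left out, changing sign without KO-Saline replicate 3. The ratio of the WT share was 0.937 without Rps9 and Rps20. The changes of the other named genes that were followed under the alternatives kept their direction. The medians over the members for genotype and for the interaction did not, with the ranges given above on both sides of 0. Several values given above were not followed in this way. Among them were those of Rps20 for LPS in KO-labelled libraries, Rps9, Rps12, Rpl5, Rpl11, Rplp0 and Rplp2. Calls of the changes followed were lost 26 times under other settings and 61 times with 1 library left out, and gained 1 and 2 times. Under log2(CPM + 5), plain totals, quantile normalization and voom weights the counts of members called did not move. Some calls of related genes were lost there (limma). In WT libraries Mrpl20 was lost under log2(CPM + 5) (adjusted p = 0.0579) and quantile normalization (adjusted p = 0.0620). Rps6ka2 was lost under plain totals (adjusted p = 0.0537) and Fau under voom weights (adjusted p = 0.0564). The KO-labelled call of Rptor was lost under voom weights (adjusted p = 0.0771). The replicate block gave 3 members for LPS in WT (11.6% of all genes), 1 in KO-labelled libraries (3.58%) and 0 elsewhere. Deviations of libraries with the same number correlated at -0.07 to 0.04, so the numbers were not taken as pairs. Counts of the related lists were compared for each list, LPS comparison and setting. They moved, by over 1.5 times or to or from 0, in 21 cases under other settings, and 107 stayed the same. With 1 library left out 32 moved and 160 stayed the same. Quantile normalization moved the median over all genes for LPS in KO-labelled libraries to -0.01, against 0.09. The compared libraries alone could not be used for the averaged difference and the interaction. Reads per gene limit all of these results.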
